A study of Mus musculus with 14 samples.

Results

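The cells described here were CD4+ T cells from white nodules of mice with a B cell-directed deletion of Eif3e, and they fell on 2 sides. The first side held the dominant T cell clones of the 2 nodules whose T cell receptors were sequenced. A clone cell carried the commonest beta chain of its nodule (1 combination of V segment, J segment and CDR3 nucleotides), at least 1 UMI of Cd3d, Cd3e or Cd3g and at least 1 UMI of Cd4. The other side held the CD4+ T cells that lay beside B cell tumors in the 5 nodules whose B cell receptors were sequenced, called bystanders here. A bystander had at least 1 Cd3 and 1 Cd4 UMI and 0 UMIs of Cd8a, Cd8b1, Cd79a, Cd79b and Ms4a1. With mitochondrial UMIs held to at most 10% of a cell, the rule found 4430 cells among 77442, which were 2967 clone cells and 1463 bystanders. The cells were thus chosen by measured receptor sequences and UMIs, so the receptor segments of the clones and the genes of the gate support nothing below.

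All 7 mice were on the C57BL/6J background. The targeted genotype was Eif3e fl/fl with Cγ1-Cre, a Cre expressed from the Ighg1 locus in activated B cells, but not all cells of mice 27 and 34 carried it. The clones came from a liver nodule of mouse 30 (14 mo of age) and a spleen nodule of mouse 32 (12 mo). The bystanders came from the liver of mouse 27 (12 mo), the lung of mouse 29 (12 mo), the spleen of mouse 31 (13 mo), the thymus of mouse 33 (16 mo) and the lung and thymus of mouse 34 (9 mo). The nodule of mouse 27 was a secondary tumor grown in a Rag2-/- recipient, a host without lymphocytes of its own. Mouse 34 was a bone marrow chimera in which most cells other than B cells came from a JHT donor, a strain without B cells. The paper made its JHT chimeras in irradiated Rag2-/- hosts and describes their JHT-derived cells as wild-type. Most bystanders of mouse 34 would thus lack the floxed allele and the Cre. Mice 31 and 34 were male and the others female, and the Rosa26-YFP reporter was carried by mice 29, 31, 32 and 34. Each mouse gave 1 nodule, so clone or bystander status, the receptor kit and the nodule cannot be told apart between the sides, and no Cre-negative nodule was compared. Therefore the clones were also compared with T cells of the same libraries that carried another receptor.

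CD4+ helper T cells recognise peptides on MHC class II and help B cells through CD40 ligand and through cytokines such as IL-4 and IL-21. Follicular helper cells, which work in germinal centres, are known for Bcl6, Cxcr5, Pdcd1 and Icos. Th1 and cytotoxic CD4+ cells are known instead for interferon γ, the chemokines Ccl3, Ccl4 and Ccl5, and granzymes. Each T cell builds its own beta and alpha chain by joining gene segments, and the joined stretch, the CDR3, marks the descendants of a cell.

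The CDR3 nucleotides of the clones are shown because they define the clone side and are the only feature that ties these cells to a common ancestor. They were read 5′ to 3′ from the deposited contigs, with the first and last codon of the CDR3 in capitals.
Mouse 30 beta, TRBV1 and TRBJ2-1: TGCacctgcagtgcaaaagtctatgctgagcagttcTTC
Mouse 30 alpha, TRAV9-2 and TRAJ21: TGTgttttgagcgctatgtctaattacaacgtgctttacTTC
Mouse 32 beta, TRBV26 and TRBJ2-5: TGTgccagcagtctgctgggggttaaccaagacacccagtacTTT
Mouse 32 alpha, TRAV6N-7 and TRAJ30: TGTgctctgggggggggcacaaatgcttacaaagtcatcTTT
Mouse 32 other alpha, TRAV14D-3-DV8 and TRAJ17: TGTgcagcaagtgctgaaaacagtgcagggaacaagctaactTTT

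The beta chain of mouse 30 was found in 1973 of 2324 barcodes with a beta contig (84.9%), and that of mouse 32 in 4794 of 5217 (91.9%). The gate on Cd3 and Cd4 kept 609 and 2358 of these barcodes, and a further 1267 and 2110 had a Cd3 UMI without a Cd4 UMI. The cells without Cd4 were shallower, with median depths of 1847 and 3224 UMIs against 2594 and 4903 UMIs in the clone cells kept. In mouse 30 the alpha chain shown was found in 350 of 609 clone cells (57.5%). In mouse 32 the alpha chains shown were found in 1932 and 1736 of 2358 clone cells, and 1437 cells (60.9%) held both of them. No clone cell held another beta contig.

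The clone cells were chosen by their beta contigs, so the beta segments in their RNA counts were set by that choice and are given as a description only. Trbv1 took 3216 of the 3452 Trbv UMIs of the mouse 30 clone (93.2%) and 1 UMI in the mouse 32 clone. Trbv26 took 13447 of the 15538 Trbv UMIs of the mouse 32 clone (86.5%) and 1 UMI in the mouse 30 clone. In the bystanders the leading Trbv gene took 14.6 to 34.7% of Trbv UMIs, and 17 to 24 different Trbv genes were seen in each nodule. The T cells used for comparison within the clone nodules were as mixed. They numbered 100 cells in mouse 30 with 60 different beta chains and 49 cells in mouse 32 with 38, and the nearest of their beta CDR3s of equal length differed from the clone by 13 and 10 bases. The commonest of their beta chains was found in 14 of the 100 cells (TRBV16) and in 8 of the 49 cells (TRBV3), so some receptors recurred. They are called non-clonal CD4 cells here and passed the same gate as the bystanders.

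The summed UMIs were 2183808 and 16546580 in the clones of mice 30 and 32, 367392 and 215613 in the non-clonal cells, and 277842 to 3659235 in the bystanders. Levels are given below as CPM, the UMIs of a gene per 1000000 UMIs of the summed cells of 1 nodule. The median depth was 3748.5 ± 1632.71 UMIs per cell in the clones (SD, n = 2) and 2486.1 ± 868.82 UMIs in the bystanders (SD, n = 5). This difference was within the spread between mice (exact two-sided permutation test over 21 splits, p = 0.286), and the smallest p that 2 mice against 5 allow is 0.0952. It rested on mouse 32, since the difference was 1262.4 UMIs with all mice and 107.9 UMIs without that clone. Any 2 of the 7 libraries shared 96 to 286 cell barcodes in the deposited matrices, and no cell was removed for it.

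**Figure D1:**
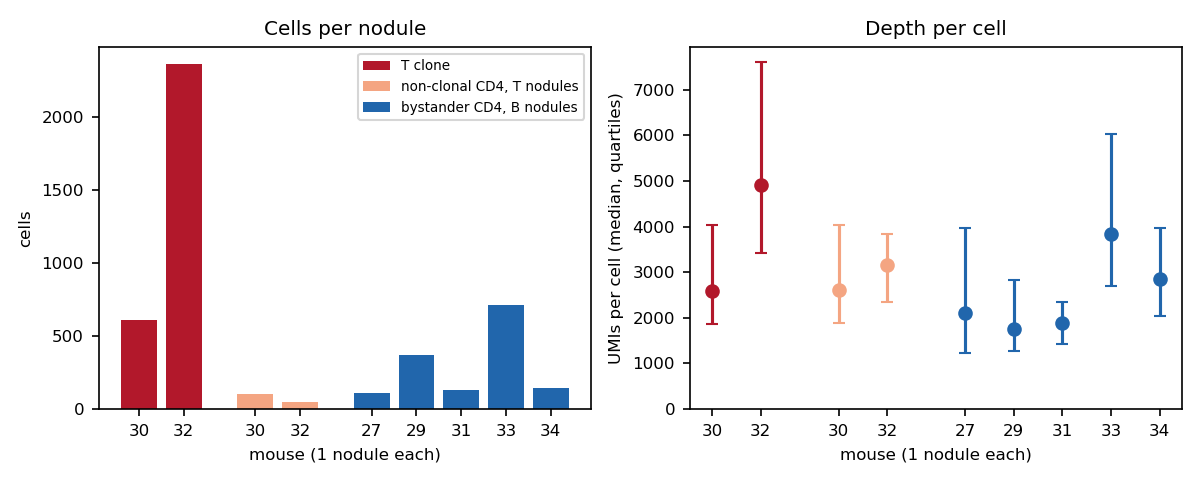
Cells per nodule (left, bars) and UMIs per cell (right, points at the median and bars from the lower to the upper quartile) for the T clones in red, the non-clonal CD4 cells of the same nodules in orange and the bystanders in blue. The clone of mouse 32 stood above the rest in both, at 2358 cells and a median of 4903 UMIs.

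Eif3e, the eIF3 subunit that the floxed allele removes from activated B cells, was measured first as a check of the model in T cells. It took 5.86% and 5.94% of the UMIs of 14 eIF3 subunit genes in the clones of mice 30 and 32. In the bystanders it took 5.07, 6.14, 5.02, 6.11 and 6.07% in mice 27, 29, 31, 33 and 34. The clones lay inside the bystander range, with a difference of 0.224 percentage points (exact two-sided permutation test, p = 0.952). The non-clonal CD4 cells of mice 30 and 32 lay above both sides, at 7.71% and 7.67%, on 76 and 46 Eif3e UMIs. Their share was not tested. The CPM of Eif3e did not pass in edgeR for these cells (adjusted p = 0.815 with the clones and 0.984 with the bystanders). UMIs are counted per gene and need not cover the deleted exon. Of 4 tested T cell markers outside the gate, 1 lay below every bystander sum and 0 above. That was Cd5, at 22 and 49.1 CPM in the clones and 65.6 to 210 CPM in the bystanders. Lck, the kinase of the T cell receptor, overlapped at 264 and 253 CPM in the clones and 185 to 319 CPM in the bystanders. Cd2, an adhesion receptor, also overlapped, at 435 and 246 CPM against 240 to 475 CPM.

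Clones and bystanders were compared over 9369 genes with edgeR's quasi-likelihood test, 1 sum per nodule. No gene passed an adjusted p of 0.05 (0%), 658 genes had an unadjusted p under 0.05 (7.02%), and the smallest adjusted p was 0.0719. DESeq2 called 156 genes on the same sums, 23 higher and 133 lower in the clones. The count rested on single mice, with 59, 13 and 22 genes called by edgeR without mouse 30, mouse 32 or mouse 29 and 0 without any other mouse. Both clones lay above every bystander sum in 465 of the tested genes (4.96%) and below every one in 388 (4.14%), and the counts of the gene lists are read against these shares. Since no gene passed, the values that follow are levels in these 7 nodules. The p-values measure the spread between mice, with 1 nodule each.

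Of 11 tested genes of the Th2 list, Il4 and Il13 lay above every bystander sum and Il10 below, while 5 genes were on the positive side and the median log2 fold change was -0.10. Il4, the cytokine that drives class switching to IgE and IgG1, lay at 223 and 192 CPM in the clones of mice 30 and 32. In the bystanders it lay at 0, 21.2, 86.4, 7.11 and 1.86 CPM in mice 27, 29, 31, 33 and 34. Both clones were therefore above all 5 bystander sums, with a log2 fold change of 3.46 ± 0.986 (SE) and an adjusted p of 0.418 (edgeR). Il13, its neighbour on chromosome 11, was at 20.6 and 40.7 CPM in the clones and at 0 to 18 CPM in the bystanders, again without overlap (log2 fold change 2.79 ± 0.950, adjusted p = 0.572). Il21, the follicular helper cytokine that acts on B cells, did overlap. It lay at 112 and 28.9 CPM in the clones and at 3.6 to 44.5 CPM in the bystanders.

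The bystander that came nearest to the clones for Il4 was that of mouse 31, where Il4 UMIs were not limited to T cells. Il4 took 47.7 CPM over all cells of that nodule and 0.879 to 4.53 CPM over all cells of the other 4 bystander nodules. In mouse 31 an Il4 UMI was found in 30.8% of B cells, at a median depth of 9065.5 UMIs, and in 10.9% of bystanders, at 1890 UMIs. With each cell thinned to 1000 UMIs the shares became 4.44% and 6.45%. The part of this Il4 RNA of other cells in the bystander level of mouse 31 was not tested.

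The share of cells with an Il4 UMI was also highest in the clones. It was 27.4% and 49.8% in the clones, 7% and 12.2% in the non-clonal cells, and 0 to 10.9% in the bystanders. Thinned to 1000 UMIs a cell, it was 13.6% and 15.5% in the clones, 2.04% and 4.08% in the non-clonal cells, and 0 to 6.45% in the bystanders. Neutrophils of the clone nodules held an Il4 UMI in 2.35% and 5.72% of cells, at median depths of 1783.5 and 9644.5 UMIs. After thinning the shares were 0.952% and 0.834%. These cells were chosen by S100a8, S100a9 and Cd3 UMIs alone, so other cells or doublets among them were not excluded. The neutrophils of mouse 29 had a median of 2201 UMIs. The thinning left out 5 and 1 clone cells, 2 and 0 non-clonal cells, 3 to 42 bystanders per nodule, and 90 and 17 neutrophils for being shallower.

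Th1 and regulatory cytokines differed between the clones themselves. Ifng, the Th1 cytokine, lay at 8.24 CPM in the mouse 30 clone and 177 CPM in the mouse 32 clone, against 176 to 252 CPM in the bystanders. The clone of mouse 32 was thus at the lower edge of the bystanders and that of mouse 30 far below them. Il10, which dampens immune responses, was at 35.7 and 119 CPM in the clones and at 134, 139, 367, 184 and 135 CPM in the bystanders, with both clones lowest (log2 fold change -1.27 ± 0.570, adjusted p = 0.71). Il2, the T cell growth factor, was too rare to be tested, at 6.87 and 3.26 CPM in the clones and 0 to 9.52 CPM in the bystanders.

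Among 18 tested genes of costimulation, 3 lay above and 2 below every bystander sum, and the median log2 fold change was -0.52 against 0.02 over all genes. Cd40lg, CD40 ligand, was at 182 and 168 CPM in the clones and at 47.0, 132, 100.8, 14.8 and 55.7 CPM in the bystanders (log2 fold change 1.35 ± 0.608, adjusted p = 0.71). Cd80, a ligand of CD28 that is better known from antigen-presenting cells, was at 144 and 214 CPM in the clones and at 71.8, 65.6, 68.4, 42.1 and 14.8 CPM in the bystanders. Its log2 fold change was 1.78 ± 0.475 (adjusted p = 0.363). Tnfsf14, the TNF family ligand LIGHT, was at 46.2 and 31.8 CPM against 2.47 to 12.7 CPM (log2 fold change 2.73 ± 0.533, adjusted p = 0.139). All of these stood above every bystander sum, and the 2 below were Cd6 and Ctla4, receptors that dampen T cell activation. Ctla4 was at 295 and 285 CPM in the clones and 311 to 572 CPM in the bystanders.

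The follicular helper list had a median log2 fold change of 0.50, with 16 of 21 tested genes on the positive side, 3 above and 2 below every bystander sum. The 3 were Il4, Cd40lg and Tox2, a partner of Bcl6 in this programme, which was at 277 and 359 CPM against 72.1 to 228 CPM. The defining genes overlapped. Bcl6, the master repressor of follicular helper cells, was at 142 and 85.3 CPM in the clones and 23 to 173 CPM in the bystanders. Cxcr5, the follicle homing receptor, was at 12.8 and 28 CPM against 26.4 to 82.8 CPM. Pdcd1 was at 286 and 135 CPM against 121 to 230 CPM, and Icos, whose ligand sits on B cells, at 111 and 328 CPM against 159 to 312 CPM.

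**Figure D2:**
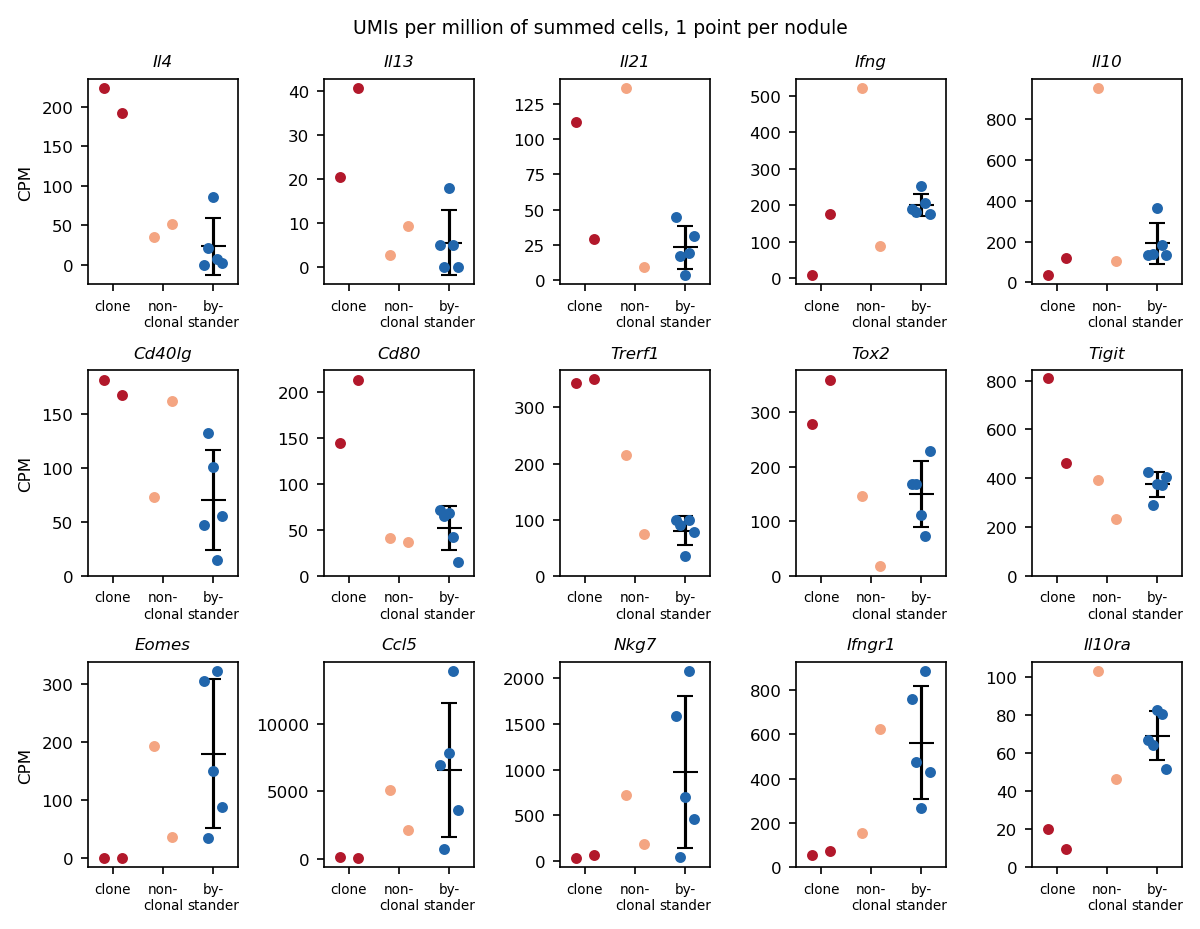
CPM of 15 genes in the T clones (red), the non-clonal CD4 cells of the same nodules (orange) and the bystanders (blue), 1 point per nodule, with the bystander mean ± SD in black and a linear axis for each gene. Il4, Il13, Cd40lg, Cd80, Trerf1, Tox2 and Tigit were above every bystander point in both clones, and Il10, Eomes, Ccl5, Ifngr1 and Il10ra below.

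The Th1 chemokines lay low in both clones. Ccl5 (chr11:83525778-83530518, GRCm38), which attracts T cells and monocytes and marks effector memory T cells, was at 196 and 90.3 CPM in the clones of mice 30 and 32. In the bystanders it was at 6981, 727, 7846, 13860.5 and 3616 CPM, and the lowest of these, in the lung nodule of mouse 29, was still above both clones. The log2 fold change was -5.57 ± 1.21 (adjusted p = 0.196), and leaving out each mouse moved the adjusted p between 0.0322 (without mouse 29) and 0.424 (without mouse 32). Ccl4 was at 43.0 and 61.6 CPM in the clones and 203 to 2656 CPM in the bystanders, and Ccl3 at 5.49 and 20.7 CPM against 65.6 to 594 CPM. None of the 10 tested Th1 genes lay above every bystander sum, and the 3 chemokines were the only ones that lay below. The list median was -0.82. Tbx21, the Th1 master factor, overlapped at 19.7 and 31.4 CPM against 7.42 to 32.2 CPM.

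Eomes (chr9:118478186-118486132), the T-box factor of cytotoxic and memory T cells, had the lowest log2 fold change of the named genes. The clones held 2 and 13 UMIs, or 0.916 and 0.786 CPM, and the bystanders 304, 34.9, 151, 322 and 89.1 CPM. The log2 fold change was -7.76 ± 1.2 (adjusted p = 0.0974, with 0.0131 without mouse 29 and 0.224 without mouse 32 as the extremes of leaving out each mouse). An Eomes UMI was found in 0.164% and 0.466% of clone cells and in 4.36 to 57.6% of bystanders, and in 0 and 0.0849% against 2.77 to 27.1% after thinning to 1000 UMIs. Neutrophils of the clone nodules held one in 0.392% and 0.117% of cells, at median depths of 1783.5 and 9644.5 UMIs. The clone share lay below this background in mouse 30 and above it in mouse 32, where the exact 95% intervals overlapped (0.233 to 0.833% in the clone and 0.00296 to 0.649% in neutrophils).

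Cytotoxic granule genes had a list median of -2.61, with 10 of 11 tested genes on the negative side. Only Fasl, the death ligand, and Klrk1, the receptor NKG2D, lay below every bystander sum. Fasl was at 2.29 and 6.22 CPM in the clones against 15.9 to 164 CPM. Nkg7, a granule membrane protein, was at 34.8 and 67.9 CPM in the clones and at 1586, 49.7, 705, 2073 and 464 CPM in the bystanders, so that only mouse 29 overlapped. Gzmk and Gzmb, granule proteases, overlapped in the same nodule, where they were at 68.8 and 6.35 CPM, while the other bystanders were at 432 to 799 CPM and 155 to 795 CPM. The clones held 6.41 and 74.3 CPM of Gzmk and 44.0 and 85.2 CPM of Gzmb. The 5 NK cell markers, a list that shares Eomes and Klrk1 with the genes above, summed to 4.58 and 3.81 CPM in the clones, 60.3 to 193 CPM in the non-clonal cells and 45.5 to 356 CPM in the bystanders. Eomes and Klrk1 were the 2 that could be tested, and both lay below every bystander sum (list median -5.91). Ncr1, the defining NK cell marker, was at 0 in all sums, and Klrb1c, which encodes NK1.1, was at 0.916 and 2.42 CPM in the clones and 0 to 4.95 CPM in the bystanders.

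Of 15 tested genes of inhibition and exhaustion, 1 was above and 5 were below every bystander sum (median -0.49). Tigit, an inhibitory receptor of effector and follicular cells, was at 813 and 461 CPM in the clones and at 292 to 426 CPM in the bystanders. Havcr2, which encodes TIM-3, was at 11 and 18.5 CPM against 43.2 to 342 CPM, and Entpd1, the ectonucleotidase CD39, at 3.66 and 14.9 CPM against 37.1 to 90.7 CPM. Lag3 overlapped, at 178 and 120 CPM against 63.5 to 222 CPM. Tox was at 1715 and 795 CPM against 638 to 1346 CPM.

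Among receptors for cytokines and chemokines, those that stood apart from the bystanders were on the lower side. Ifngr1, the ligand-binding chain of the interferon γ receptor, was at 53.6 and 72.6 CPM in the clones and at 760, 473, 266, 884 and 429 CPM in the bystanders (log2 fold change -3.19 ± 0.587, adjusted p = 0.122). Il10ra, the IL-10 receptor, was at 20.1 and 9.85 CPM against 66.8, 64.5, 82.8, 80.9 and 52.0 CPM (log2 fold change -2.27 ± 0.393, adjusted p = 0.113). Both genes left a clear gap between the sides. With Tgfbr2 they were the 3 of 18 tested cytokine receptors that lay below every bystander sum, and none lay above. Of 20 homing genes 4 lay below and 0 above. Those below included Ccr2, the receptor of monocyte chemokines, Selplg, the selectin ligand, and Itga4, an integrin chain.

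Of 27 tested genes of T cell receptor signalling, 2 lay above and 6 below every bystander sum (median -0.13). Those below included Trat1, Cd5, Cblb, Grap2 and Themis. Cd5, a brake on receptor signals, was at 22 and 49.1 CPM in the clones and 65.6 to 210 CPM in the bystanders, and Cblb, a ubiquitin ligase with the same role, at 131 and 93.1 CPM against 198 to 453 CPM. Grap2, the adaptor GADS, was at 3.21 and 33.9 CPM against 72.0 to 408 CPM. Ptpn6, the phosphatase SHP-1, was above, at 84.7 and 78.9 CPM against 19.8 to 61.2 CPM. Early response genes had a list median of -1.07, with 14 of 16 tested genes on the negative side. Fosb and Junb, subunits of AP-1, were the 2 below every bystander sum, Junb at 487 and 643 CPM against 784 to 2318 CPM.

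Trerf1 (chr17:47140942-47362325), a transcriptional regulator, lay at 343 and 350 CPM in the clones. The bystanders were at 99.0, 91.0, 36.0, 98.7 and 77.9 CPM, far below both clones (log2 fold change 2.06 ± 0.354, adjusted p = 0.113). The non-clonal CD4 cells were at 215 CPM in mouse 30, also above every bystander sum, and at 74.2 CPM in mouse 32. Within the nodules the log2 fold change was 1.33 ± 0.455 (edgeR with the mouse as a block, adjusted p = 0.618). Over all cells the nodule of mouse 30 stood at 339 CPM and that of mouse 32 at 90.8 CPM, next to 28.6 to 75.7 CPM in the bystander nodules. After thinning to 1000 UMIs a Trerf1 UMI was found in 29% and 28.6% of clone cells (unthinned 54.8% and 62.8%), in 3.23 to 10.2% of bystanders (unthinned 6.20 to 29.3%) and in 2.62% and 4.29% of neutrophils of the clone nodules (unthinned 8.43% and 30.3%).

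Beside Trerf1 and Tnfsf14, the 10 genes of lowest p on the higher side included Sema6d, Camp, Acly, Tprg, Abca13, Ildr1 and Sdk1, with adjusted p-values of 0.0974 to 0.149 over all 10. Acly, which makes acetyl-CoA for fatty acid synthesis, was at 132 and 199 CPM in the clones and within 47.6 to 68.7 CPM in the bystanders. Sema6d, a semaphorin, was at 171 and 38.4 CPM against 0 to 14.4 CPM. Tprg was at 95.2 and 412 CPM against 0, 19.0, 0, 0.820 and 1.86 CPM. Camp encodes the neutrophil peptide cathelicidin. It was at 44.4 and 354 CPM in the clones and at 7.41 CPM in mouse 29 and 0 in the other bystanders, but also at 493 and 78.8 CPM in the non-clonal cells and at 1700 and 1347 CPM over all cells of the clone nodules, against 0.180 to 266 CPM over those of the bystander nodules. The 6 neutrophil markers summed to 649 and 1643 CPM in the clones, 2648 and 186 CPM in the non-clonal cells, and 0, 1741, 0, 2.19 and 5.57 CPM in the bystanders. Their part in the value of Camp was not tested. Abca13 was at 14.7 and 21.2 CPM in the clones and 0 to 2.12 CPM in the bystanders, but also at 5.44 and 13.9 CPM in the non-clonal cells. Over all cells it was at 41.6 and 64.6 CPM in the clone nodules and 0.654 to 9.67 CPM in the bystander nodules. The part of other cells in the value of Abca13 was not tested.

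On the lower side, beside Eomes, Cd6 and Il10ra, the 10 genes of lowest p were Agbl4, Ebf1, Frmd6, Unc5cl, Dpp4, Arl5a and Camk2n1 (adjusted p-values of 0.0719 to 0.113). Agbl4, a carboxypeptidase that trims glutamates from tubulin, was at 9.62 and 7.98 CPM in the clones and at 156, 107, 61.2, 104 and 119 CPM in the bystanders (log2 fold change -3.67 ± 0.441, adjusted p = 0.0719). Dpp4, the peptidase CD26 of the T cell surface, was at 5.04 and 7.13 CPM against 30.7 to 85.8 CPM. Ebf1, a B cell transcription factor, was at 1.83 and 2.42 CPM against 14.4 to 34.6 CPM, and over all cells at 10.5 and 1.10 CPM in the clone nodules against 246 to 655 CPM in the bystander nodules. The 8 B cell markers, 3 of which the bystander gate had set to 0, summed to 9.16 and 115 CPM in the clones and 35.8 to 72.0 CPM in the bystanders, and their part was not tested. The 8 macrophage markers overlapped, and summed to 22.9 and 69.6 CPM in the clones and 14.8, 572, 378, 478 and 29.7 CPM in the bystanders. Of them 5 were tested, all on the negative side with 2 below every bystander sum (median -3.92), and the 7 tested MHC class II genes were all on the negative side (median -1.33). At least 2 UMIs of another lineage were found in 26.9% and 69.1% of clone cells and in 10.6 to 39.5% of bystanders. Without such cells 12 of 6698 genes passed, 3 higher and 9 lower.

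None of 14 interferon response genes and none of 13 tested eIF3 subunits stood apart from the bystanders, with medians of 0.07 and -0.11. Of 20 proliferation genes 18 were on the negative side, 1 lay below every bystander sum and 0 above (median -0.43), and Mki67 was at 194 and 185 CPM in the clones and 64.8 to 240 CPM in the bystanders. Of 17 glycolysis genes 3 lay above and 0 below (median -0.02), led by Tpi1 at 317 and 160 CPM against 98.4 to 153 CPM. Foxp3, the factor of regulatory T cells, was detected in 4 and 5 clone cells and in 0 to 12 bystanders per nodule, and the regulatory T cell list had 1 gene above and 2 below.

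**Figure D3:**
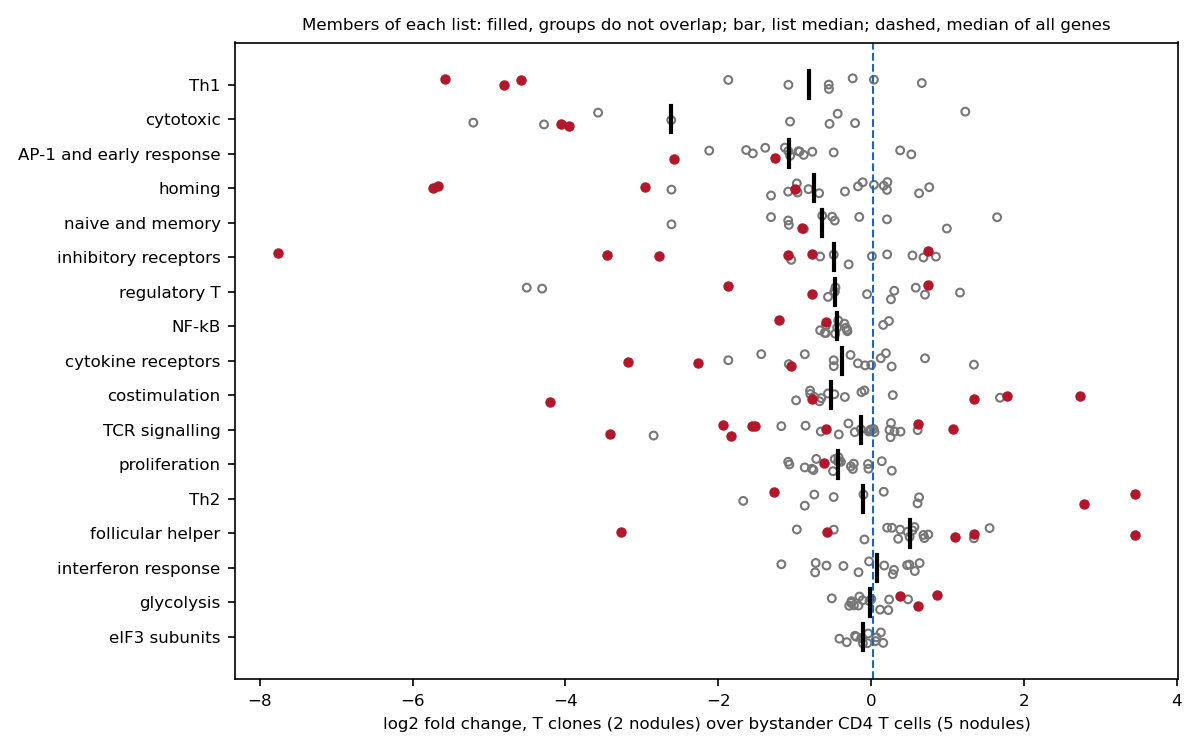
Log2 fold change of each tested gene, clones over bystanders, by gene list. Filled points mark genes whose groups do not overlap in CPM, black bars the list medians and the dashed line the median of all 9369 genes (0.02), and no point passed an adjusted p of 0.05.

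The comparison within the nodules set each clone against the non-clonal CD4 cells of its own library, with the mouse as a block. It uses the same clone sums as the comparison above, so the values of both are given side by side and neither is a check of the other. Over 9451 tested genes 2 passed (0.0212%), both lower in the clones, and 645 had an unadjusted p under 0.05 (6.82%). DESeq2 called 60. The first gene was Ccl5, at 196 and 90.3 CPM in the clones and 5104 and 2175 CPM in the non-clonal cells of mice 30 and 32. The log2 fold change was -4.70 ± 0.258 (edgeR with the mouse as a block, adjusted p = 0.0166), and lower in 2 of 2 nodules. This fit left 1 residual degree of freedom, so its SE and p rest largely on a spread estimated across all genes. Without the block the adjusted p of Ccl5 was 0.612. After thinning to 1000 UMIs a Ccl5 UMI was found in 10.8% and 4.33% of clone cells, 58.2% and 18.4% of non-clonal cells and 2.14% and 1.07% of neutrophils (unthinned 23.2% and 10.8%, 64.0% and 20.4%, 3.92% and 3.50%). The other gene was Trbv3, a beta segment that the clones do not use, so the choice of cells set its value in the clones. TRBV3 was also the commonest beta V segment of the non-clonal cells, in 18 of 100 cells of mouse 30 and 13 of 49 of mouse 32.

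Several genes of the first comparison had the same direction within the nodules without passing. Eomes was at 193 and 37.1 CPM in the non-clonal cells (log2 fold change -6.43 ± 0.626, adjusted p = 0.114). Cd6 was at 128 and 37.1 CPM there, Il10ra at 103 and 46.4 CPM and Agbl4 at 68.0 and 74.2 CPM. On the higher side, Il4 was at 35.4 and 51.0 CPM in the non-clonal cells (log2 fold change 2.24 ± 0.366, adjusted p = 0.240) and Cd80 at 40.8 and 37.1 CPM (2.09 ± 0.378, adjusted p = 0.263). Tprg was at 0 and 9.28 CPM (5.96 ± 0.620, adjusted p = 0.114). Among all genes 33.4% were higher and 21.3% lower in the clone in both nodules. Cd40lg was at 73.5 and 162 CPM, so in mouse 32 the non-clonal cells came close to the clone at 168 CPM. Il10 and Ifng had no common direction, with 953 and 520 CPM in the non-clonal cells of mouse 30 against 35.7 and 8.24 CPM in its clone, and 102 and 88.1 CPM in those of mouse 32 against 119 and 177 CPM.

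**Figure D4:**
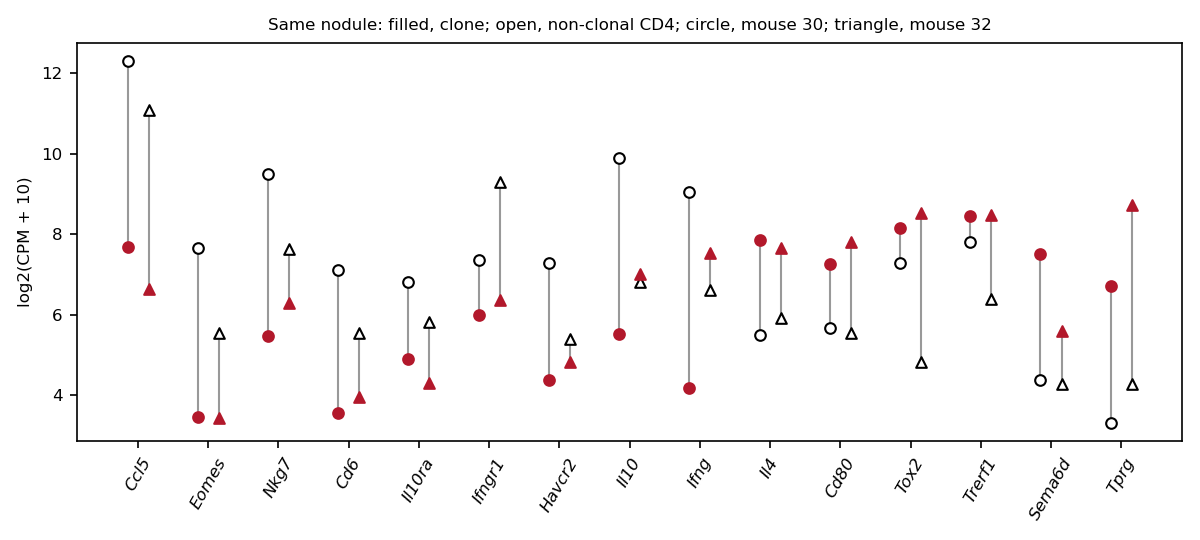
Log2(CPM + 10) of 15 genes in the clone (filled red) and the non-clonal CD4 cells (open black) of mouse 30 (circles) and mouse 32 (triangles), with a line joining the pair of each nodule. Ccl5, Eomes and Cd6 were lower and Il4, Cd80, Tox2, Trerf1, Sema6d and Tprg higher in the clone in both nodules, while Il10 and Ifng lay on different sides in the pair of nodules, and of these 15 genes only Ccl5 passed the test.

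By list, glycolysis genes were higher in the clone in both nodules for 11 of 17 and lower for 0 (median log2 fold change 0.39 against 0.05 over all genes), and none passed. Of 10 Th1 genes 6 were lower and 0 higher in both (median -1.23), and Ccl5 was the only one that passed. Of 15 early response genes 9 were lower and 2 higher. Of 20 proliferation genes 12 were lower and 1 higher, and of 14 interferon response genes 9 were lower and 2 higher. Of 15 ribosomal genes 13 were lower and 0 higher. Of 20 follicular helper genes 8 were higher and 1 lower. Over all genes 33.4% were higher and 21.3% lower in both nodules. The MHC class II genes had a median of 0.65 over 6 tested genes within the nodules, opposite in sign to the median against the bystanders.

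The non-clonal CD4 cells were then set against the bystanders, with sums that both comparisons above also use. Of 6527 tested genes 0 passed in edgeR (0%), 258 had an unadjusted p under 0.05 (3.95%), and DESeq2 called 1. Eomes had a log2 fold change of -0.56 in this comparison, and the non-clonal sums of 193 and 37.1 CPM lay inside the bystander range of 34.9 to 322 CPM. For Ccl5 the non-clonal sums also lay inside the range of the bystanders. The lowest p belonged to Camp (7.53 ± 1.07, adjusted p = 0.239), and Mef2c, Ebf1 and H2-Aa followed, all lower (adjusted p = 0.958 in each).

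The clones were not alike in all respects, and with 1 library each this is a description with counting intervals only. The clone of mouse 30 held 1400 CPM of Xcl1, a chemokine for cross-presenting dendritic cells, and that of mouse 32 held 1.03 CPM, a ratio of 1363 (exact 95% interval 850 to 2342). Penk, the enkephalin precursor, was at 4305 and 171 CPM, and the bystanders lay between, at 389 to 2685 CPM. Cst3, a cysteine protease inhibitor, was at 4458 CPM in the mouse 30 clone, 134 CPM in the mouse 32 clone and 119 to 542 CPM in the bystanders. Its non-clonal neighbours in mouse 30 were at 103 CPM. Cntn1, Zfp804b, Ccdc88a, Col12a1 and Zfp981 completed the 8 genes with the largest ratio toward mouse 30. Zfp981 was at 1007 CPM in the mouse 30 clone, but at 1501 CPM over all cells of the mouse 34 nodule.

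Toward mouse 32 the leading genes were Car1, Hbb-bs, Car2, Smoc2, Hbb-bt, Sytl3, Dpp6 and Rasgrf1. Car1 and Car2, carbonic anhydrases of red cell precursors, were at 627 and 427 CPM in that clone, but at 1447 and 686 CPM in its non-clonal cells and at 2521 and 1754 CPM over all cells of the nodule. Hbb-bs, a globin, was at 480 CPM in the clone, 37.1 CPM in the non-clonal cells and 1677 CPM over all cells. The 6 erythroid markers summed to 839 CPM in this clone and 0.458 CPM in the other, and their part in these ratios was not tested. Smoc2 (261 CPM, all cells 65.5 CPM), Dpp6 (149 CPM, all cells 32.2 CPM) and Rasgrf1 (142 CPM, all cells 37.7 CPM) were higher in the clone than over the whole nodule. For Dpp6 the clone of mouse 30 held 0 UMIs, and against a floor of 3 UMIs in that sum the mouse 32 clone was at least 108.6-fold higher (lower limit of the exact 95% interval 88.3).

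**Figure D5:**
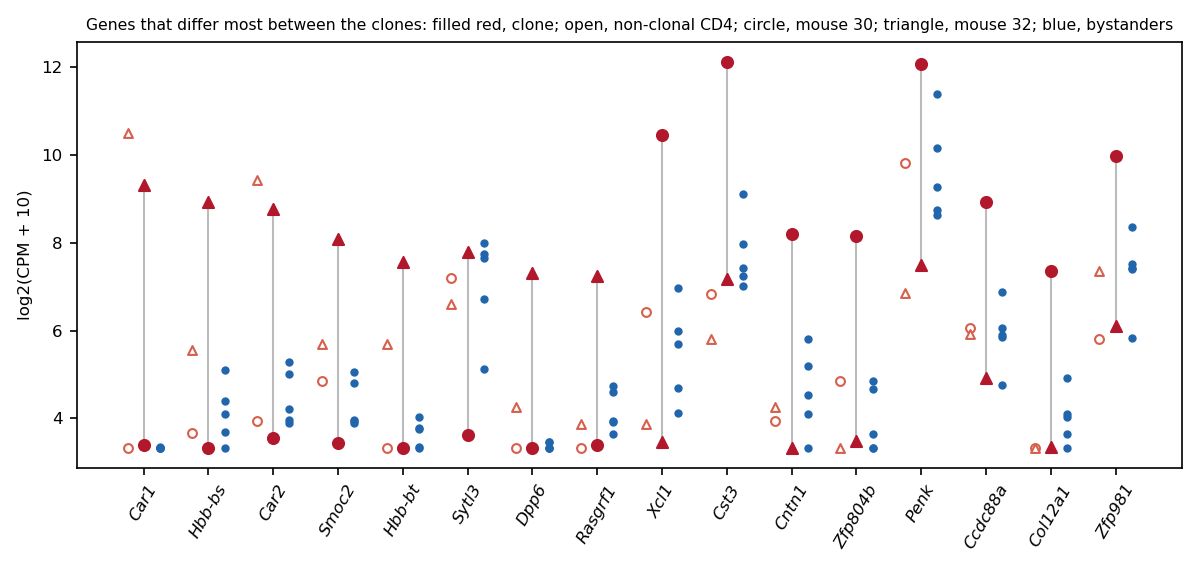
Log2(CPM + 10) of the 16 genes with the largest ratios between the clones of mouse 30 (filled circles) and mouse 32 (filled triangles), with the non-clonal CD4 cells of each nodule (open symbols) and the 5 bystander sums (blue). Car1 and Car2 were also high in the non-clonal cells of mouse 32, whereas the 8 genes toward mouse 30 were each highest in its clone among these 9 sums.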

How the data were processed

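The authors deposited, per nodule, a 10x-style matrix of UMI counts (32285 genes, not normalized) and tables of assembled receptor contigs. Per the labels the reads were placed on GRCm38, and the aligner and its settings are not given in the sources used here. The labels name a 5′ kit and the methods a 3′ kit for the RNA, while the methods name a 5′ kit for the receptor libraries. Of the clone barcodes in the contigs, 1963 of 1973 in mouse 30 and 4757 of 4794 in mouse 32 were also in the RNA matrices. The transcript end counted was not tested. The lowest depth in the matrices was 500 UMIs, and no doublet caller was run. Here cells were selected by the rules given above, UMI counts were summed per nodule, and CPM were computed on the sums. The members, gene lists and named genes were chosen with earlier results of these data known. Named genes were those past an adjusted p of 0.05 (up to 15 per direction), else the 10 of lowest p per direction, the genes called within nodules, a core list of 39 genes, and the 8 largest ratios per side between the clones (CPM + 10, at least 50 CPM in 1 clone). Receptor, gate, mitochondrial, sex-specific and unnamed genes were left out of the ranks, and examples from lists were those of lowest p.

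Tests were edgeR 4.0.16 quasi-likelihood fits in R 4.3.3 (TMM, filterByExpr, Benjamini-Hochberg adjustment over all tested genes), with DESeq2 1.42.0 as an alternative. SE is the size of the log2 fold change over the root of F. The scripts were tested on simulated counts. The mouse pairs clone and non-clonal cells because both come from 1 library, and it is the block of that fit. Depth and the Eif3e share were compared by exact permutation over 21 splits, with the smaller tail doubled. That form of the two-sided p was chosen after the p-values had been seen, and counting splits by absolute difference instead gave 0.238 for depth and 0.905 for Eif3e, with no call in either form. Intervals are exact binomial at 95% and cover counting error only. Thinning drew 1000 UMIs per cell once, with a fixed seed. Neutrophils were cells with at least 10 UMIs of S100a8 and S100a9 and no Cd3. Coordinates are from the RefSeq annotation of GRCm38. Sex, tissue and host differ between the mice and could not be modelled with 2 clones. Alternatives are listed in the closing section. Some named genes are not reported here.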

Additional observations from a re-analysis of the deposited data

Results flagged for a closer look

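Among 61 groups of 5 bystander sums examined, 8 had a sample whose gap to its nearest neighbour was over 0.71 of the group's range. For 5 normally distributed values chance gives about 1 in 20. These CPM include values at 0 and need not be normally distributed, so the 8 are not read as an excess over chance. Mouse 29, the lung nodule, was highest for Camp (gap 1.00 of the range, 7.41 CPM against 0 elsewhere), Tprg (0.903, 19.0 CPM against at most 1.86 CPM) and Il2 (0.805, 9.52 CPM against at most 1.86 CPM), and lowest for Ctla4 (0.784, 311 CPM against at least 516 CPM). Mouse 31, the spleen nodule, was highest for Il4 (0.755, 86.4 CPM against at most 21.2 CPM), Il13 (0.725, 18 CPM against at most 4.95 CPM) and Il10 (0.782, 367 CPM against at most 184 CPM). Mouse 33, the thymus nodule, was highest for Tbx21 (0.830, 32.2 CPM against at most 11.6 CPM). The Camp, Il2 and Il13 values rest on few UMIs.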

How the results depend on the processing

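With 2 clones against 5 bystander sums, calls were the least stable outcome. Clones against bystanders gave 0 calls in edgeR. DESeq2 gave 156, no filter on low counts 759 (357 higher and 402 lower, of 22116 tested), and leaving out cells with RNA of another lineage 12, while leaving out each mouse gave 0 to 59. Upper-quartile factors, cells of at least 1000 UMIs, no Foxp3 cells, female mice only, no receptor genes, the bystander gate for clone cells, and leaving out mice 27 and 34 (chosen after seeing the data) gave 0. Non-clonal cells against bystanders gave 0, with 1 in DESeq2, 4 without the filter and 0 to 2 without each mouse. The 2 calls within nodules became 0 with no replicate block and 1 with no replicate block in a fit over all 3 groups, 60 in DESeq2, 310 without the filter (188 higher and 122 lower), 1 with cells of at least 1000 UMIs and 8 without Foxp3 cells (1 higher and 7 lower). A lone clone in a fit is assumed to vary like the bystanders, and the cause of these shifts was not tested. The Eif3e difference was -2.75 as CPM in place of 0.224 as a share, and 0.0577 to 0.338 percentage points without each mouse.

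The sign of the log2 fold change turned for genes of which none passed, with values against bystanders of up to 0.71 in size with all mice (Il2ra). Against bystanders Eif3e (main -0.05) was at 0.0106 without other-lineage cells, 0.0449 without mice 27 and 34 and -0.15 to 0.0127 without each mouse. Icos (main -0.09) was at 0.00211 and 0.0955 under these first alternatives and at -1.11 to 0.48 without each mouse. Without each mouse, Pdcd1 ranged from -0.41 to 0.64, Tox from -0.0986 to 0.97, Gata3 from -0.30 to 1.16, Il2ra from -0.91 to 1.46, Lef1 from -3.11 to 0.36, S1pr1 from -5.07 to 1.14 and Lag3 from -0.30 to 0.27. The clones decided these ranges, with the lowest and highest values without mouse 30 or 32 for all but Eif3e and Lag3. Mki67 was at -0.0912 without other-lineage cells. Lag3 (main 0.0120) was also at -0.00462 in DESeq2, -0.0282 with cells of at least 1000 UMIs, -0.0198 without Foxp3 cells, -0.21 in female mice, -0.0124 without mice 27 and 34 and -0.00396 in the bystander gate. Within nodules, Il21 was at -0.21 and -0.20 and Lag3 at -0.0285 and -0.0240 with no replicate block in the fit of 2 or of 3 groups, and without Foxp3 cells Batf was at -0.0261, Lag3 at -0.20 and Mki67 at 0.53.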

Other observations

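The bystanders of mouse 34, from the lung and thymus of the chimera, held several genes of Th17 cells at higher levels than the other sums. Il17a was at 282 CPM there and at 0 to 27.2 CPM in the other bystanders, Il23r, the receptor that sustains these cells, at 66.8 CPM against 0.820 to 4.95 CPM, and Ccr6 at 57.5 CPM against 0 to 3.17 CPM. Il22 was at 72.4 CPM there and at 54.4 CPM in the bystanders of mouse 27. The clones held 12.8 and 0.544 CPM of Il17a.

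Clone cells held RNA of beta and alpha segments for which no contig was listed among them. Trbv24 had 1586 UMIs in the mouse 32 clone and 0 to 5 UMIs in every other sum. In the mouse 30 clone Trbv4 had 221 UMIs and Trav21-dv12 had 130 UMIs, next to 3216 UMIs of Trbv1. The alpha contigs called TRAV6N-7 matched 4 UMIs of Trav6n-7 and 930 UMIs of its near copy Trav6-7-dv9 in the mouse 32 clone, so the RNA counts of these copies are uncertain.

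The clone of mouse 32 also held Pax5 and Cd22, genes best known from B cells, at 50.5 and 56.7 CPM, while Ms4a1 was at 0 and the mouse 30 clone held 0.458 and 5.95 CPM.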
